A study of Nannospalax ehrenbergi and Mus musculus with 25 samples.

Results

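Troponin and tropomyosin are the proteins that make the thin filament of striated muscle respond to calcium. Tropomyosin lies along actin and covers its myosin binding sites at rest. The troponin complex sits on tropomyosin and has 3 subunits: troponin C binds calcium, troponin I holds back contraction, and troponin T anchors the complex on tropomyosin. Skeletal muscle builds the complex from slow or fast genes according to fiber type, so the 9 genes described here comprise 3 slow troponins (Tnnc1, Tnni1 and Tnnt1, of which Tnnc1 also serves the heart), 3 fast troponins (Tnnc2, Tnni2 and Tnnt3) and 3 tropomyosins (Tpm1, Tpm2 and Tpm3). They were chosen as a family by name, and all 9 are among the 27988 genes of the Spalax table and the 47593 genes of the mouse table. Tropomyosin genes differ from the troponins in that they also give isoforms to the actin cytoskeleton of other cells. Each gene has 1 value per library, so muscle and other isoforms of Tpm1, Tpm2 and Tpm3 could not be told apart.

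RNA-seq was performed on neck muscle and lesions of the blind mole rat Spalax and of C57BL/6 mice, 25 libraries in all. Untreated Spalax gave 4 control libraries, all from females. Spalax that received 1 subcutaneous injection of 3-methylcholanthrene (3MCA, a sarcoma-inducing carcinogen; 1 mg in 500 µl) gave 4 tolerant libraries from the injected side of animals without a tumor, sampled at 18 months (2251 and 2261, males) or 30 months (2218, male, and 2375, female), 2 animals with a granuloma (600 at 14 months and 976 at 16 months, both female) and 2 with a fibrosarcoma (2240, female, at 18 months, and 2230, male, at 30 months). Male mice gave 3 untreated controls and 3 animals with a fibrosarcoma (1019 at 14 weeks, 1023 at 12 and 512 at 11) after 200 µg 3MCA in 200 µl. Each of these 7 lesion-bearing animals gave a library of the lesion on the injected side (IS) and 1 of muscle from the uninjected side (UIS). Mice were 3 to 4 months old, whereas Spalax were wild-caught, and their ages were only estimated over a wide range and not stated for each animal. Control and tolerant Spalax libraries carried dual indexes and lesion-bearing ones single indexes, so index design cannot be told apart from the group in comparisons between them. All Spalax controls were female, and 3 of the 4 tolerant animals and 1 of the 4 lesion-bearing ones were male. In the labels of UIS muscle 976, 1 line of the description carries another animal number, and the title and the other line were followed.

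Libraries held 17025447 to 23386729 reads in Spalax and 22143060 to 31179183 in mouse. Values are normalised counts, which are reads per gene divided by 1 size factor per library, and 1 read was worth 0.517 to 1.44 of them. The muscle label was checked with fast fiber genes (myosins, light chains and partners of the fast sarcomere), whose summed level was 317642 to 1205980 in the 12 Spalax muscle libraries over the 7 genes its table holds. In the 4 Spalax lesions this sum was 128 to 1394. A list of 7 slow fiber genes, Atp2a2 among them, summed to 5281 to 6103 in these lesions and 104866 to 396750 in Spalax muscle. The part of each gene in this sum is not given here. Each slow troponin held only 1.23 to 149.9 normalised counts in these lesions. The same 4 lesions held 0 to 10.9 normalised counts for 3 satellite cell (muscle stem cell) markers together. In mouse 10 fast fiber genes summed to 948109 to 4077890 in muscle and 98.2 to 31058 in the lesions. Both libraries of mouse 512 stood apart from those of the other mice, and mouse comparisons of IS with UIS are also given without them, an alternative added after the data were seen.

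The paired genes are close relatives, and the question whether a read could be assigned to 1 of them was checked on the mouse transcripts of GENCODE vM21. Between members, the longest identical run in coding sequence was 35 bases (Tpm1 and Tpm2), followed by 23 (Tpm1 and Tpm3), 22 (Tnni1 and Tnni2) and 21 (Tnnc1 and Tnnc2), all shorter than a read of 101 sequencing cycles. For troponin C, troponin I and Tpm1 with Tpm2, the stretch around the longest identical run of the pair is shown. The stretches most alike over a whole read were not searched for. Bases that differ within a pair are in capitals, positions count from the first coding base, and the sequences come from the GENCODE vM21 transcripts. Of 90 bases from position 20, the troponin C genes shared 48 and differed in 42.
Tnnc1: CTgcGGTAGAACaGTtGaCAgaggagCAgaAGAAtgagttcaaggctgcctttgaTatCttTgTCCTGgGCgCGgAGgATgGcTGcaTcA
Tnnc2: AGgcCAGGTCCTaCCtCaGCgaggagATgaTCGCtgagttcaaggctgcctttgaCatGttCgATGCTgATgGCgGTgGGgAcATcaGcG
The troponin I genes shared 71 of 90 bases, from position 348 in Tnni1 and 369 in Tnni2.
Tnni1: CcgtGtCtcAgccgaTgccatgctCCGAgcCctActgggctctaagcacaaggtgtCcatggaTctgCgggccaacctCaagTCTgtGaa
Tnni2: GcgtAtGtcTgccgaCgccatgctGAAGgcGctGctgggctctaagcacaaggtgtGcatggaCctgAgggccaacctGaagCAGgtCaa
The first 90 coding bases of Tpm1 and Tpm2 had 75 bases in common and 15 that differed.
Tpm1: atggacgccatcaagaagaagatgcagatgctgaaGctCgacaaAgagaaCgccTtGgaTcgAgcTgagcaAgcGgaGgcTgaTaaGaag
Tpm2: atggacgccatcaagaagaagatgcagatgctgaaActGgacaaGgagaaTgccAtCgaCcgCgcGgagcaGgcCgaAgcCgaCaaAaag
Every one of these windows held differing bases along most of its length, and read assignment in Spalax, whose transcripts were not used here, was not tested.

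In the mouse genome (GRCm38, GENCODE vM21) the troponin I and T genes lie in pairs. Tnni2 (chr7:142441808-142444410, plus strand, 7 merged exons) and Tnnt3 (chr7:142498836-142516009, plus strand, 21 merged exons) are 54425 bases apart with Lsp1 between them. Tnnt1 (chr7:4504570-4516382, minus strand) is 1922 bases from Tnni3, the cardiac troponin I gene. Tnni1 (chr1:135779434-135810989, plus strand) is 25364 bases from Tnnt2, the cardiac troponin T gene, with Lad1 between them. Tnnc1 (chr14:31208312-31211729, plus strand), Tnnc2 (chr2:164777161-164779967, minus strand), Tpm1 (chr9:67022590-67049406, minus strand), Tpm2 (chr4:43514711-43523765, minus strand) and Tpm3 (chr3:90072649-90100902, plus strand) lie apart from the others. Values are per gene over all its exons. Tnnt3 has 23 protein-coding transcripts and Tpm1 has 16, so a gene value sums many splice forms.

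Of the 9 genes, Tnnc2 is the exception in the counting. In mouse, 592 of its 800 exon bases (74%) lie under Ube2c, a cell cycle gene on the opposite strand, whereas no other member has exon bases under another gene. Mouse muscle held only 2.42 to 14.1 normalised counts of Tnnc2 in 6 libraries, against 52480.1 to 276804 in the 12 Spalax muscle libraries. Ube2c itself held 44.0 to 218.9 in mouse muscle and 884 to 1238 in the 3 lesions. The strand setting of the counting is not given in the sources used here, and the part of this overlap in the low values was not tested. Mouse Tnnc2 is therefore given as values only, and it fell under the filter of 10 in every mouse comparison.

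In untreated muscle the 9 genes together took 5.87% to 8.01% of all reads in Spalax and 2.04% to 3.91% in mouse. Tnnc2 entered these sums unequally, with 0.657% to 1.02% in Spalax and next to nothing in mouse. The Spalax and mouse tables were made separately, and the part of Tnnc2 in the gap between these sums was not tested. The control muscles also differed in fat. Brown fat markers summed to 34925 to 56476 normalised counts in mouse and 19.8 to 91.1 in Spalax. Fat markers summed to 14118 to 30755 in mouse and 146 to 5061 in Spalax, and the part of fat in the shares was not tested. In Spalax control libraries the calcium-binding subunits stood at 18860.2 ± 10038 normalised counts for Tnnc1 and 195305 ± 60585 for Tnnc2 (SD, n = 4). The inhibitory subunits stood at 20136 ± 8738 for Tnni1 and 219546 ± 61841 for Tnni2 (SD, n = 4). The tropomyosin-binding subunits stood at 34228 ± 14695 for Tnnt1 and 405916 ± 106174 for Tnnt3 (SD, n = 4). Tpm1 reached 268506 ± 70127, Tpm2 368056 ± 117464 and Tpm3 43958 ± 17656 (SD, n = 4). The same library, control 2095, was highest in all 9 genes, and Spalax levels are compared between libraries only, since no transcript lengths were used for this species.

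For mouse, levels can be set between genes per length of merged exons. In control muscle Tnnt3 came first at 160880.0 ± 86775 normalised counts per 1000 exon bases, followed by Tnni2 at 80782 ± 44177 and Tpm2 at 47623 ± 20659 (SD, n = 3), and each overlapped the next in range. Tpm1 followed at 18677 ± 8622 (SD, n = 3), below every Tpm2 value and above every slow troponin value. Tnnc1 (3474 ± 1889), Tnnt1 (3159 ± 1473), Tpm3 (1459 ± 533) and Tnni1 (836 ± 379) overlapped with their neighbors in this order (SD, n = 3). Tnnt3, Tnni2, Tpm2 and Tpm1 thus stood above the slow genes in this neck muscle, and Tnnc2, with the overlap given above, came last at 10.1 ± 7.06 (SD, n = 3). Cytoskeletal Tpm4, which is no member, stood at 832 ± 99.8 per 1000 exon bases (SD, n = 3).

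**Figure D1:**
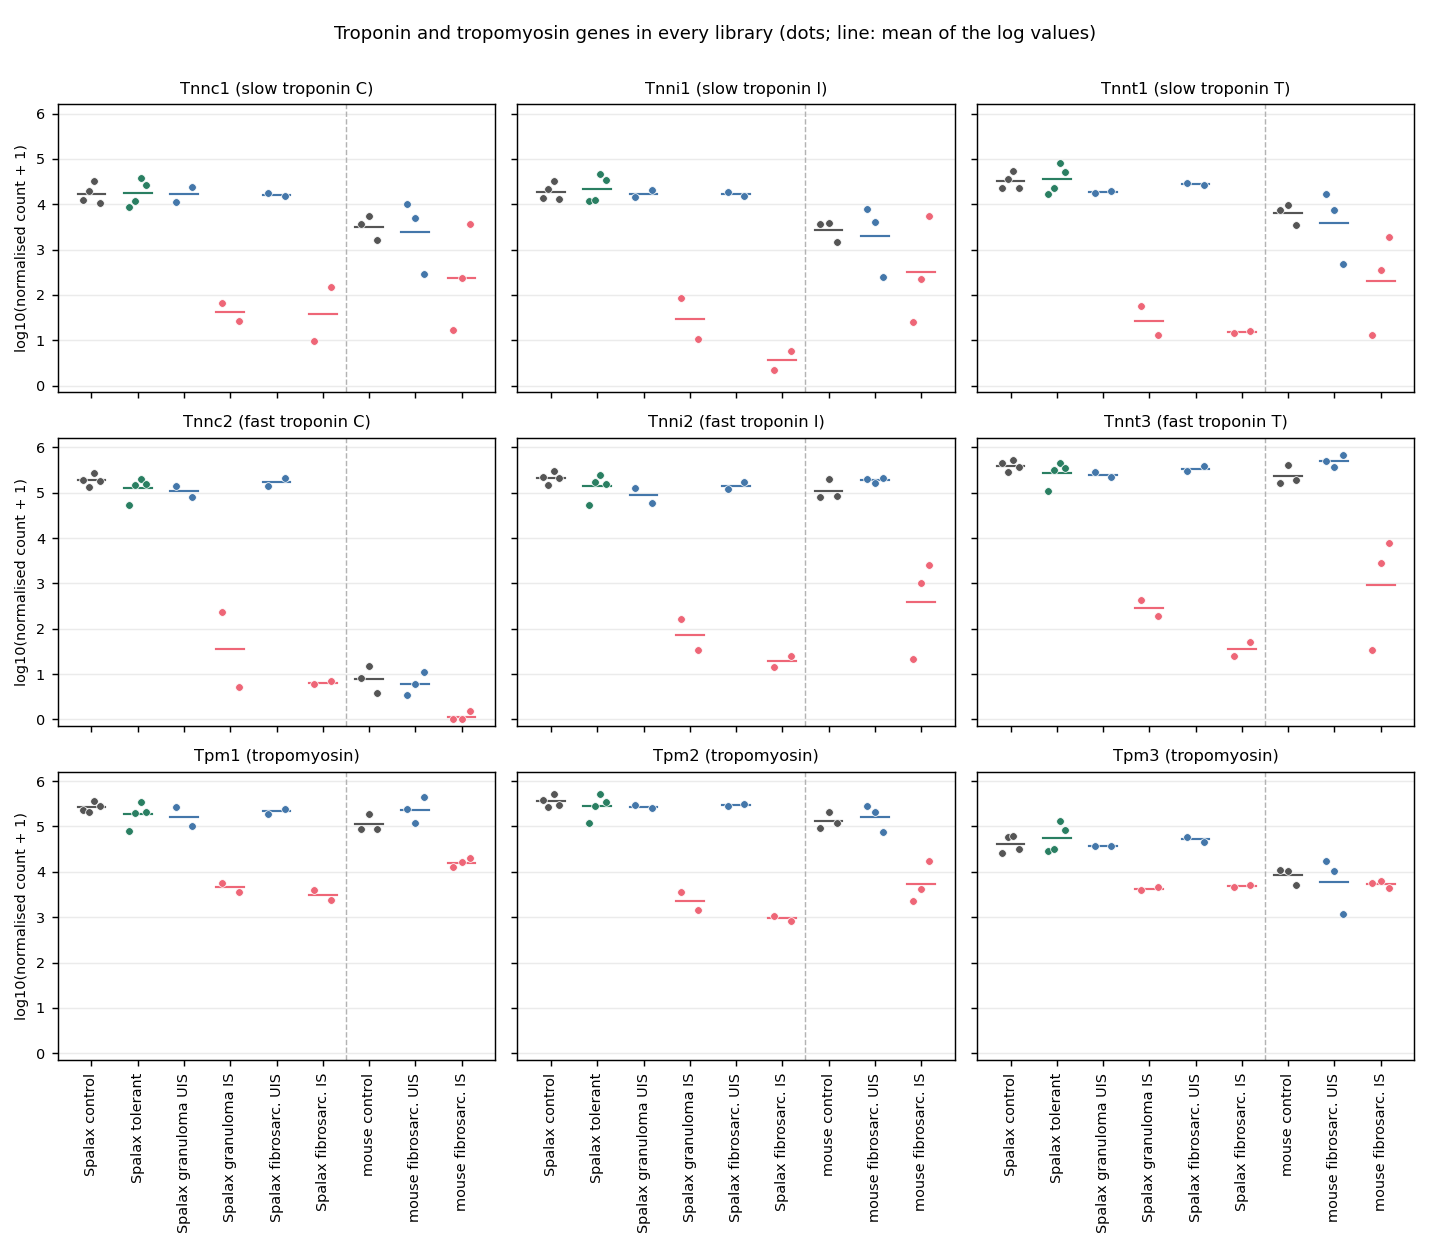
Each panel shows 1 gene, with a dot per library of each group (x axis) at log10(normalised count + 1) on the y axis, the mean of the log values as a line, and Spalax left and mouse right of the dashed line. Lesions (IS) lie below all Spalax muscle libraries in both Spalax lesion types, whereas the 3 mouse lesions spread widely, 1 of them reaches muscle levels in the slow troponins, and 1 mouse muscle library lies far below the other muscle in the slow troponins and Tpm3.

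The first comparison asked how the granuloma differs from muscle of the uninjected side. All 9 genes were lower in granuloma IS (limma adjusted p 0.0047 to 0.0134), where 24.3% of all genes tested changed in either direction and 12.6% were lower. Among the slow troponins, Tnnc1 held 11368 and 24239 normalised counts in UIS of animals 600 and 976, against 64.6 and 26.0 in IS. Tnni1 went from 14281 and 20196 to 83.5 and 9.67. Tnnt1 went from 18046 and 19906 to 55.2 and 12.1. Both lesions lay far below both muscles in each slow gene, and lesion 976 below lesion 600. Their log2 fold changes were -8.62 (SE 0.61) for Tnnc1, -9.14 (SE 0.98) for Tnni1 and -9.45 (SE 0.72) for Tnnt1.

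Fast troponins reached similarly low values in the granuloma. Tnnc2 held 142720.0 and 80487 normalised counts in UIS of 600 and 976, against 232 and 4.23 in IS. Tnni2 fell from 125630.0 and 59737 to 162 and 32.6. Tnnt3 fell from 279243 and 221662 to 438 and 195. In all 3 genes lesion 600 held more than lesion 976, by the widest margin in Tnnc2. The log2 fold changes were -11.58 (SE 1.72) for Tnnc2, -10.19 (SE 0.83) for Tnni2 and -9.73 (SE 0.51) for Tnnt3, and Tnnc2 kept its call in only 1 of the 4 fits that left out 1 library, that without granuloma IS 600.

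The log2 fold changes of the tropomyosin genes were smaller than those of the troponins. Tpm1 held 264965 and 102130.0 normalised counts in UIS and 5795 and 3605 in IS, a log2 fold change of -5.17 (SE 0.65). Tpm2 held 291219 and 249606 in UIS and 3552 and 1410.2 in IS, a change of -6.91 (SE 0.61). Tpm3 held 36371 and 37756 in UIS and 3936 and 4595 in IS, the smallest change of the 9 at -3.12 (SE 0.39). Tpm4, whose product belongs to the cytoskeleton of non-muscle cells, rose from 1969 and 1665 to 28867 and 18756 (log2 fold change 3.68, SE 0.40, limma adjusted p 0.0077). With 2 libraries a group these p-values rest on little spread, and without granuloma IS 976 only 4 of the 9 genes kept the call and 98 genes were called in all.

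The same question was asked of the Spalax fibrosarcoma, which again held the 9 genes at lower levels than UIS (9 of 9, limma adjusted p 0.000477 to 0.0129), where 36.3% of all genes tested changed and 19% were lower. Tnni1 held 18807 and 14923 normalised counts in UIS of 2240 and 2230, against 1.23 and 4.80 in IS, which are 2 and 8 reads. Tnnt1 went from 29775 and 25984 to 13.5 and 15.0. Tnnc1 went from 17707 and 15041 to 8.61 and 149.9, so that lesion 2230 kept 250 reads of Tnnc1 beside 10 of Tnnc2. The log2 fold changes were -12.19 (SE 0.56) for Tnni1, -10.83 (SE 0.24) for Tnnt1 and -8.74 (SE 1.34) for Tnnc1.

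Fast troponins were lower by a wider margin. Tnnc2 held 141831 and 215160.0 normalised counts in UIS and 4.92 and 6.00 in IS, with the largest change of the 9 genes at -14.73 (SE 0.30). Tnni2 held 118030.0 and 174463 against 13.5 and 24.6, a change of -12.86 (SE 0.39). Tnnt3 held 293128 and 383645 against 24.6 and 51.0, a change of -13.17 (SE 0.42). No fast troponin had more than 85 reads in a fibrosarcoma library. Tpm1 changed by -6.12 (SE 0.42), Tpm2 by -8.26 (SE 0.31) and Tpm3 by -3.39 (SE 0.30). Tpm3 kept 4693 and 5186 normalised counts in the lesions, close to its granuloma values. Tpm4 rose from 2847 and 2531 to 33042 and 20725 (3.28, SE 0.33, limma adjusted p 0.0057). Leaving out either UIS library, 2240 or 2230, left 0 genes called of all genes tested, so the calls rest on both.

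**Figure D2:**
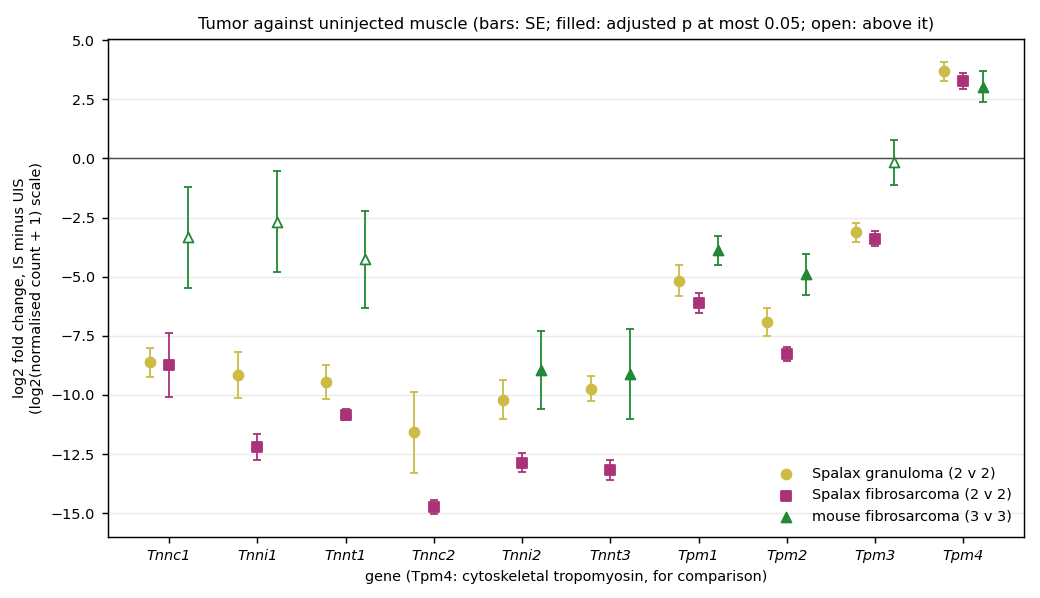
Log2 fold change of IS against UIS (y axis) for the 9 genes and Tpm4 (x axis) in Spalax granuloma, Spalax fibrosarcoma and mouse fibrosarcoma, with SE bars, filled symbols for a limma adjusted p of at most 0.05 and open symbols above it. All 9 genes are filled and negative in both Spalax lesions, Tpm3 lies nearest to 0 among them, the mouse symbols of the 9 genes are filled for Tnni2, Tnnt3, Tpm1 and Tpm2, and Tpm4 is filled and positive in all 3.

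Beside these falls, marker genes of other cells differed between lesion and muscle as well. The 5 fibroblast markers summed to 661556 to 1548460 normalised counts in granuloma IS and 12741 to 16655 in granuloma UIS, and to 56973 to 358920 in fibrosarcoma IS against 23014 to 38885 in UIS. Macrophage markers (4 of 5 in the table) summed to 6990 to 30562 in the 4 lesions and 967 to 2399 in the 4 UIS libraries. The 7 smooth muscle markers summed to 7746 to 23586 in granuloma IS against 4744 to 5298 in UIS. In fibrosarcoma their ranges overlapped, at 6925 to 8107 in IS and 6161 to 7511 in UIS. The 4 fat markers summed to 2.40 to 7.85 in the lesions against 63.6 to 2202 in UIS. In bulk tissue fewer muscle fibers and less of these RNAs per fiber cannot be told apart, and the part of tissue composition in the falls was not tested.

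A list of 14 thin filament partners was counted next. It holds actin, nebulin, tropomodulin and leiomodin genes and also Cfl2, Cap2, Klhl40, Klhl41, Kbtbd13, Nrap and Xirp1. In granuloma 13 of 14 were lower and 0 higher, with a median log2 fold change of -9.12 beside -9.14 for the 9 genes and -0.01 for all genes tested. In Spalax fibrosarcoma all 14 were lower (median -11.11, beside -10.83 and 0.03). In mouse 13 of 14 were lower (median -6.49, beside -4.07 for the 8 members tested and 0.11), and without mouse 512 all 14 were (median -8.15). The skeletal actin gene Acta1 changed by -9.94 (SE 1.51), -13.00 (SE 0.25) and -8.43 (SE 2.65) in the 3 lesion types, and Neb, the nebulin gene, by -11.65 (SE 1.65), -14.76 (SE 0.25) and -7.04 (SE 1.58), with -10.51 (SE 3.05) and -7.97 (SE 1.44) in mouse without 512. The partner that was not called in granuloma or mouse was Actc1, the cardiac actin gene (-0.82, SE 1.74, and -3.95, SE 3.38), which without mouse 512 changed by -6.80 (SE 1.06, limma adjusted p 0.0120). Fiber type regulators were a list of 12 genes, mostly of transcription factors and cofactors. Of these, 9, 9 and 7 (9 in mouse without 512) were lower and none higher, beside 12.6%, 19% and 22.3% of all genes called lower. Among them Sox6, a repressor of slow genes in fast fibers, changed by -9.45 (SE 0.93), -7.50 (SE 0.69) and -6.79 (SE 1.36; -7.95 without 512). Of cytoskeletal actin genes, a list of 8, 6 rose in each Spalax lesion type and 5 in mouse (7 without 512), beside 11.7%, 17.4% and 22.8% of all genes called higher. Flna, the filamin A gene, rose by 3.33 (SE 0.40), 3.00 (SE 0.40) and 2.73 (SE 0.33; 2.55 without 512).

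In the mouse fibrosarcoma 4 of the 8 genes tested were lower than in UIS and 0 higher, where 45.1% of all genes tested changed and 22.3% were lower. Tnni2 held 197406, 160676 and 211515 normalised counts in UIS of 1019, 1023 and 512, against 20.7, 995 and 2582 in IS (log2 fold change -8.95, SE 1.66, limma adjusted p 0.0076). Tnnt3 held 497280.0, 363342 and 677381 against 33.6, 2778 and 7717 (-9.10, SE 1.90, limma adjusted p 0.0107). Tpm1 held 241249, 121230.0 and 442779 against 12614, 16411 and 19698 (-3.88, SE 0.62, limma adjusted p 0.0047). Within each of these genes every lesion was below every muscle, as in 29.2% of all genes tested, and lesion 1019 was lowest and lesion 512 highest. Tpm2 held 285277, 204054 and 74378 in UIS and 2319.7, 4160.4 and 17124 in IS (-4.89, SE 0.87, limma adjusted p 0.0067). Mouse Tnnc2 held 2.42, 5.16 and 10.1 in UIS and a single read in the 3 IS libraries, for which no fold is given. DESeq2 called 5 of the 8 genes, adding Tnnt1, where it called 53.7% of all genes.

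Slow troponins and Tpm3 did not pass the test in mouse. Tnnc1 held 10027, 4937 and 286 normalised counts in UIS of 1019, 1023 and 512, against 15.5, 234 and 3596 in IS (-3.33, SE 2.14, limma adjusted p 0.241). Tnni1 held 7909.7, 4075 and 248 against 23.8, 224 and 5578 (-2.67, SE 2.14, limma adjusted p 0.342). Tnnt1 held 16506, 7432 and 488 against 11.9, 354 and 1876 (-4.26, SE 2.05, limma adjusted p 0.132). In all 3 genes the lesions of 1019 and 1023 lay below their own muscle and the lesion of 512 lay above its own. Tpm3 held 17619, 10564 and 1169 in UIS and 5712, 6214 and 4366 in IS (-0.16, SE 0.97, limma adjusted p 0.904), and its sign turned to 0.90 (limma adjusted p 0.48) when libraries were scaled by total reads. That scaling moved the median change of all genes from 0.11 to 1.16 in mouse, from -0.01 to 0.72 in granuloma and from 0.03 to 0.83 in Spalax fibrosarcoma. The calls then split into 7555 higher and 1675 lower in mouse (3469 and 3401 without it), 3370 and 1126 in granuloma (1718 and 1863) and 5169 and 1661 in Spalax fibrosarcoma (2550 and 2789), while the members called remained 4, 9 and 9 in number.

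Both libraries of mouse 512 were thus unlike those of the other mice, in opposite directions. In its UIS muscle the slow troponins were nearly absent. The slow gene took 0.117% of troponin I reads (172 of 147094 reads, exact 95% binomial interval 0.1001% to 0.136%) and 0.0720% of troponin T reads (0.0645% to 0.0801%) there, against 1.66% to 4.41% and 1.79% to 4.48% in the other mouse muscles. Myh4, the myosin of the fastest fibers, was highest there at 2051170 normalised counts, against 212559 to 691217 in the other 5. The slow fiber genes, a list of 7, summed to 7614 in this library and to 29169.5 to 82750 in the other 5.

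Its lesion carried genes of forming muscle. Tnnt2, the cardiac troponin T gene that developing skeletal muscle also uses, held 9103 normalised counts in IS 512 beside 3.62 in IS 1019 and 24.3 in IS 1023. Actc1 held 22110 against 1.55 and 7.71, Myh3 (embryonic myosin) 5921 against 3.10 and 93.7, and Myog (myogenin, a transcription factor of muscle differentiation) 10921 against 1.03 and 16.0. The satellite cell markers summed to 5474 there, against 4.13 and 8.30 in the other mouse lesions and 87.8 to 712 in mouse muscle. The Spalax lesions held 26.6 to 777 of the 6 developmental muscle genes together, against 33227 in IS 512 and 817 and 1426 in the other mouse lesions. Without both libraries of mouse 512 all 8 genes tested were lower in IS, where 24.3% of all genes were. Tnnc1 then changed by -6.82, Tnni1 by -6.25, Tnnt1 by -7.36 and Tpm3 by -1.20 (limma adjusted p 0.0162 to 0.0347). Mouse 512 was left out after its values were seen, and it alone had these genes higher in IS. The calls without it are thus a description and no independent test of these genes. Beside the mouse falls, fibroblast markers summed to 97983 to 128869 in IS and 3799 to 23542 in UIS, and macrophage markers to 2496 to 15796 against 312 to 2455, and their part in the falls was not tested. Whether muscle or muscle precursors lay in the piece of lesion 512 was not tested.

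**Figure D3:**
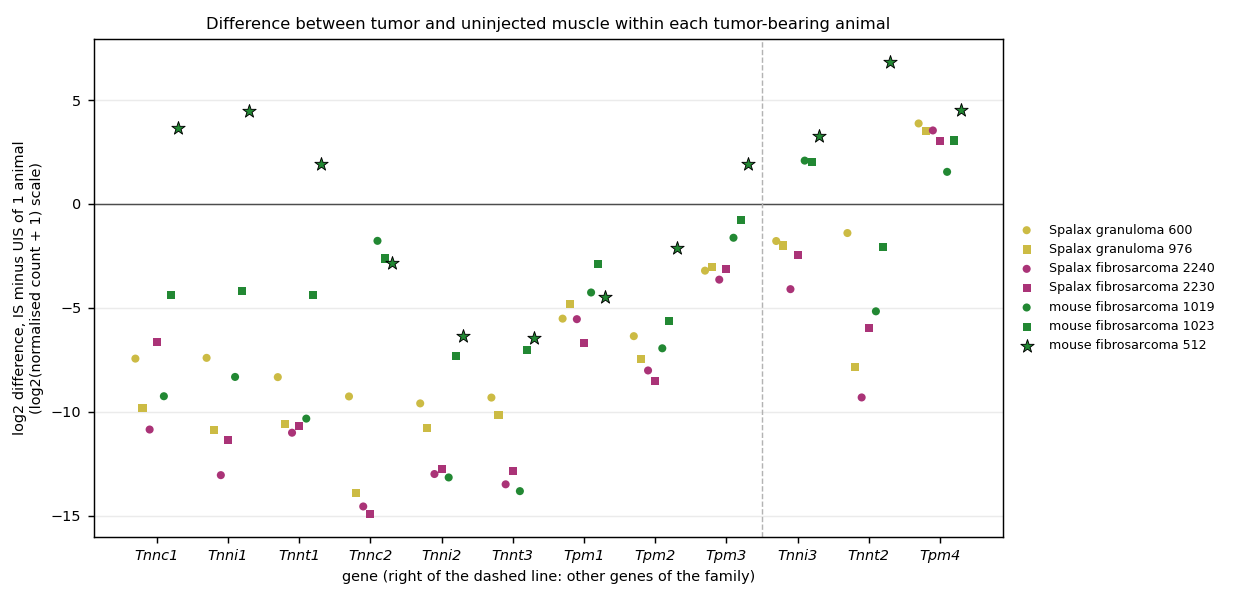
Log2 difference between IS and UIS of 1 animal (y axis, log2(normalised count + 1) scale) for the 9 genes and, right of the dashed line, 3 other genes of the family (x axis), with color for the lesion type and a star for mouse 512. The star is above 0 in Tnnc1, Tnni1, Tnnt1 and Tpm3, where the other 6 animals are below 0, and all 7 animals are below 0 in Tnni2, Tnnt3, Tpm1 and Tpm2, while the mouse symbols of Tnnc2 rest on at most 7 reads a library.

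Counted by animal, all 7 animals were lower in IS for Tnni2, Tnnt3, Tpm1 and Tpm2, as for 22.4% of the genes tested in all 3 lesion types. For Tnnc1, Tnni1, Tnnt1 and Tpm3 it was 6 of 7, and the share of all genes lower in 6 of 7 was not computed. Tnnc2 was lower in the 4 Spalax animals, and its mouse values, at most 7 reads, were not counted. The difference between species was tested as an interaction over Spalax and mouse fibrosarcoma in the 8 genes that passed the filter in both. Limma called 0 of 8 at an adjusted p of 0.05, where 3.95% of all shared genes were called, and 5 of the 8 had an unadjusted p under 0.05 beside 21.6% of all. The estimates were all negative, which is a deeper fall in Spalax, from -2.24 (SE 0.82) for Tpm1 to -9.52 (SE 2.95, limma adjusted p 0.108) for Tnni1. Without mouse 512 they ran from -1.92 (SE 2.19) for Tnnc1, which had been -5.41 (SE 3.15), to -5.94 (SE 1.43, limma adjusted p 0.0589) for Tnni1. Limma then called Tpm3 alone (-2.19, SE 0.44, limma adjusted p 0.0411), and the share of all genes called in this fit is not given here. Mouse 512 was left out after the data were seen, and its own Tpm3 had gone the other way. Tnnt1 then moved from -6.58 to -3.48, Tpm2 from -3.37 to -1.98, and Tnni2 and Tnnt3 from -3.91 and -4.07 to -2.62 and -2.75. EdgeR called 0 of the 8 (3.73% of all genes) and DESeq2 called 6 (15.2% of all genes), all but Tnnc1 and Tpm3.

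Among the family outside the 9 genes, Tnni3, the cardiac troponin I gene, went in opposite directions. It held 58.2 and 44.1 normalised counts in Spalax fibrosarcoma UIS and 2.46 and 7.20 in IS (-3.28, SE 0.65, limma adjusted p 0.023). In mouse it held 21.8, 7.22 and 2.88 in UIS and 95.6, 32.0 and 35.8 in IS (2.45, SE 0.80, limma adjusted p 0.0448). The interaction was -5.72 (SE 1.26, limma adjusted p 0.0457), a call lost with the animal as a replicate block (adjusted p 0.0777), with edgeR (0.0525) and without mouse 512 (-5.32, limma adjusted p 0.0523). The mouse change alone was 2.05 without 512 (limma adjusted p 0.105). These are few reads, 2 to 185 in all 10 libraries, and 4.17% of mouse Tnni3 exon bases lie under Dnaaf3 on the same strand.

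Granuloma and fibrosarcoma of Spalax were then set against each other. Between the 2 lesion types limma called 0 of the 7 members tested and 0% of all genes, with 1 member at an unadjusted p under 0.05 beside 4.06% of all genes. That gene was Tnnt3, with 438 and 195 normalised counts in granuloma IS and 24.6 and 51.0 in fibrosarcoma IS (-3.01, SE 0.69, limma adjusted p 1). DESeq2 called it at an adjusted p of 0.0068, where it called 1.04% of all genes, and edgeR called 0 genes. Tnni2 (162 and 32.6 against 13.5 and 24.6) and Tpm2 (3552 and 1410.2 against 1086 and 835) also had both fibrosarcoma values below both granuloma values, as 14.7% of all genes did, without a call. Tpm3 was nearly the same in both lesion types, with a difference of 0.21 (SE 0.31). The interaction, which takes each type against its own muscle, was -3.44 (SE 0.70, limma adjusted p 0.895) for Tnnt3. Limma and edgeR called 0 of 9 members and 0% of all genes, with 2 members (Tnnt3 and Tnni2) at an unadjusted p under 0.05 in limma beside 4.92% of all genes, and DESeq2 called Tnnt3 alone of the 9, beside 0.539% of all genes.

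Lesions of both Spalax types were finally compared with injected muscle that grew no tumor. All 9 genes were lower in the 4 lesions than in the 4 tolerant libraries, where 46.4% of all genes tested changed and 24% were lower, and without overlap, as 22.5% of all genes were. The changes ran from -3.61 (SE 0.50) for Tpm3 to -13.01 (SE 1.13) for Tnnc2, with limma adjusted p from 8.66e-06 to 0.000635. The 9 genes took 3.09% to 7.60% of reads in tolerant libraries and 0.0668% to 0.0957% in the lesions. This comparison shares its lesion libraries with both comparisons above.

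Uninjected muscle of lesion-bearing Spalax was compared with untreated muscle to ask whether the lesion goes with a change elsewhere. Limma called 0 of the 9 genes and 0% of all genes, with 0 members at an unadjusted p under 0.05 beside 16.6% of all genes, and edgeR and DESeq2 also called 0 members (0% and 3.7% of all genes). The estimates were negative without a call for the 3 slow troponins, the 3 fast troponins, Tpm1 and Tpm2, led by Tnni2 with 119465 ± 47018 normalised counts in UIS (SD, n = 4) against 219546 ± 61841 in control (-0.93, SE 0.43, limma adjusted p 0.315). The slow genes differed by -0.05 (SE 0.38) for Tnnc1, -0.16 (SE 0.31) for Tnni1 and -0.48 (SE 0.33) for Tnnt1, and Tpm3 by 0.09 (SE 0.35). UIS and control overlapped in range in all 9 genes.

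Tolerant muscle was set against the same controls, which gave 0 of 9 by limma, edgeR and DESeq2 (0%, 0% and 0.435% of all genes), with 0 members at an unadjusted p under 0.05 beside 5.23% of all genes. The estimates were -0.61 (SE 0.63) for Tnnc2, -0.62 (SE 0.67) for Tnni2 and -0.54 (SE 0.81) for Tnnt3. For the slow genes and Tpm3 the estimates were positive, at 0.06 (SE 0.54) for Tnnc1, 0.24 (SE 0.52) for Tnni1, 0.15 (SE 0.54) for Tnnt1 and 0.44 (SE 0.57) for Tpm3. The spread within the tolerant group exceeded these differences. Tolerant 2251 was lowest in all 9 genes among the 4 tolerant libraries, with 54254 of Tnni2 against 157265 to 245749, and tolerant 2218 was highest in all 9. In 2251 the fibroblast markers summed to 160001 and the macrophage markers to 10130, the highest of the 12 Spalax muscle libraries, and Tpm4 stood at 6678 against 1418 to 3656 in the other 3. UIS against tolerant gave 0 of 9 genes by the 3 tools, where limma and edgeR called 0.00713% of all genes and DESeq2 0.278%, and 5.12% of all genes had an unadjusted p under 0.05.

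The granuloma and fibrosarcoma bearers were also compared by their UIS muscle, which gave 0 of 9 genes by limma, edgeR and DESeq2 (0%, 0% and 0.915% of all genes), with 0 members at an unadjusted p under 0.05 beside 4.06% of all. Tnnt1 (29775 and 25984 against 18046 and 19906 normalised counts), Tnnt3 (293128 and 383645 against 279243 and 221662) and Tpm3 (58479.9 and 45569.7 against 36371 and 37756) had both fibrosarcoma bearers above both granuloma bearers, as 18.9% of all genes did, without a call. In mouse, UIS against control gave 0 of the 8 genes tested by limma, edgeR and DESeq2 (0%, 0% and 2.3% of all genes), with 0 members at an unadjusted p under 0.05 beside 11% of all genes. The largest estimate was Tnnt3 with 512668 ± 157584 in UIS against 254674 ± 137365 in control (SD, n = 3; 1.09, SE 0.64, limma adjusted p 0.515). Brown fat markers summed to 34925 to 56476 in the mouse controls and 13.0 to 19228 in mouse UIS, and their part in these estimates was not tested.

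The mix of slow and fast genes was described as the share of reads that the slow gene takes within each subunit. Such a share compares libraries and not the 2 genes, since it is not corrected for length. In Spalax control muscle it was 8.82% ± 3.68 for troponin C, 8.56% ± 3.41 for troponin I and 7.87% ± 2.89 for troponin T (SD, n = 4). In tolerant muscle it was 13.0% ± 3.87, 14.7% ± 5.36 and 12.0% ± 3.53 (SD, n = 4). UIS muscle of lesion-bearing Spalax was near the tolerant means for C and I but not T, at 12.0% ± 7.67, 14.3% ± 7.71 and 7.47% ± 1.52 (SD, n = 4). In 3 of the 4 tolerant animals (2251, 2218 and 2375) every share was above all 4 controls, whereas 2261 lay within the control range at 7.34%, 6.75% and 6.90%. The differences between these groups were not tested. Counting error was small, as the exact 95% binomial interval of a Spalax muscle share was at most 0.655 percentage points wide.

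The 3 subunits moved together between animals. Over the 12 Spalax muscle libraries the log ratio of slow to fast gene correlated with Pearson r = 0.96 (Spearman rho = 0.95) between troponin C and troponin I, 0.77 (0.82) between C and T and 0.74 (0.76) between I and T. The ratios come from the same libraries, and these values are a description. Granuloma UIS 976 parted the subunits, with 23.1% for C and 25.3% for I, the highest of all Spalax muscles, and 8.24% for T. In mouse muscle the share was 0.117% to 4.41% for I and 0.0720% to 4.48% for T. Over the 6 libraries r was 0.99 (rho = 0.94), with UIS 512 far below the others in both shares. Spalax and mouse tables were made separately, so this lower mouse share is not compared further.

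**Figure D4:**
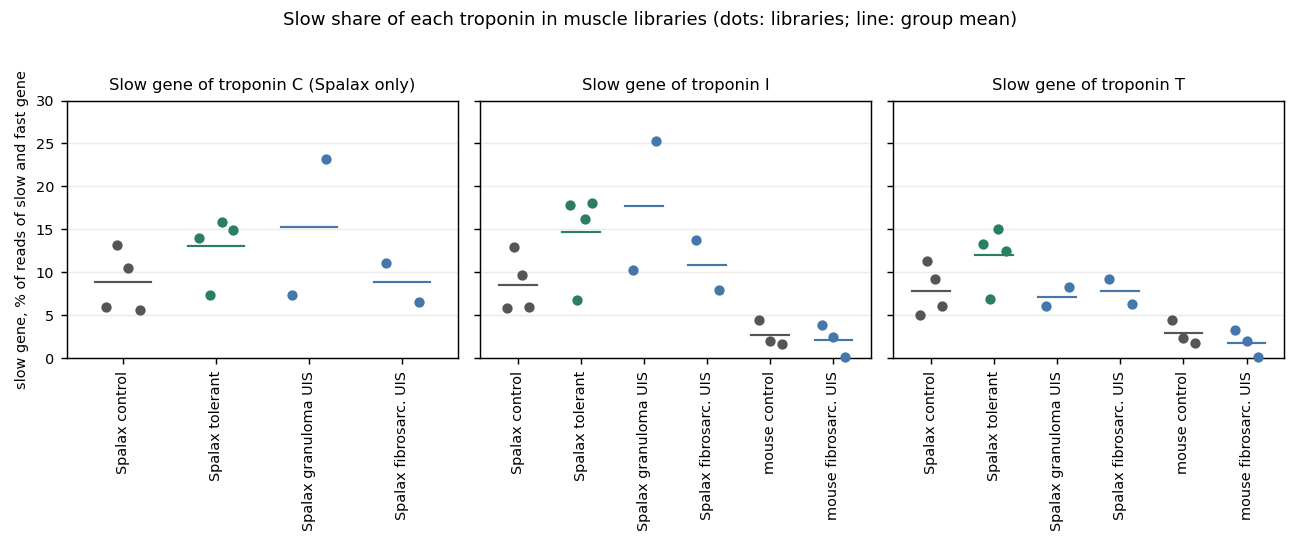
Share of the slow gene in the reads of slow plus fast gene (y axis, %) for each troponin subunit in muscle libraries, with a dot per library and a line at the group mean, and with troponin C for Spalax only. Spalax muscle spans 4.96% to 25.3%, mouse muscle 0.0720% to 4.48% in troponin I and T, and 3 of 4 tolerant dots lie above all control dots in each panel.

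In the lesions the shares rest on few reads. In Spalax fibrosarcoma IS 2240, Tnni1 gave 2 of 24 troponin I reads, 8.33% (exact 95% binomial interval 1.03% to 27.0%), and in 2230 Tnnc1 gave 250 of 260 troponin C reads, 96.2% (93.0% to 98.1%). Tnnc1 also led in granuloma IS 976, with 43 of 50 reads, 86% (73.3% to 94.2%), but took only 21.8% (17.9% to 26.1%) in granuloma IS 600. In mouse IS 512 the slow share of troponin I was 68.4% (67.6% to 69.1%) of 15502 reads, against 0.117% in its own UIS. These intervals cover counting error only.

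The mix of tropomyosin genes was described in the same way, with Tpm4 included. Of the reads of Tpm1, Tpm2, Tpm3 and Tpm4 in Spalax control muscle, Tpm2 took 53.5% ± 5.07, Tpm1 39.5% ± 4.24, Tpm3 6.61% ± 2.96 and Tpm4 0.446% ± 0.196 (SD, n = 4). In granuloma IS Tpm4 took 66.1% and 68.5%, and Tpm2 8.43% and 4.97%. In Spalax fibrosarcoma IS Tpm4 took 71.1% and 77.3%, and Tpm2 2.54% and 2.87%. In mouse lesions Tpm1 took 35.4% to 39.9% and Tpm4 26.0% to 39.3%. Mouse UIS 512 differed from other muscle here too, with Tpm1 at 85.3% and Tpm2 at 14.3%, where the other 5 mouse muscles held 35.9% to 46.2% and 47.2% to 60.4%.

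**Figure D5:**
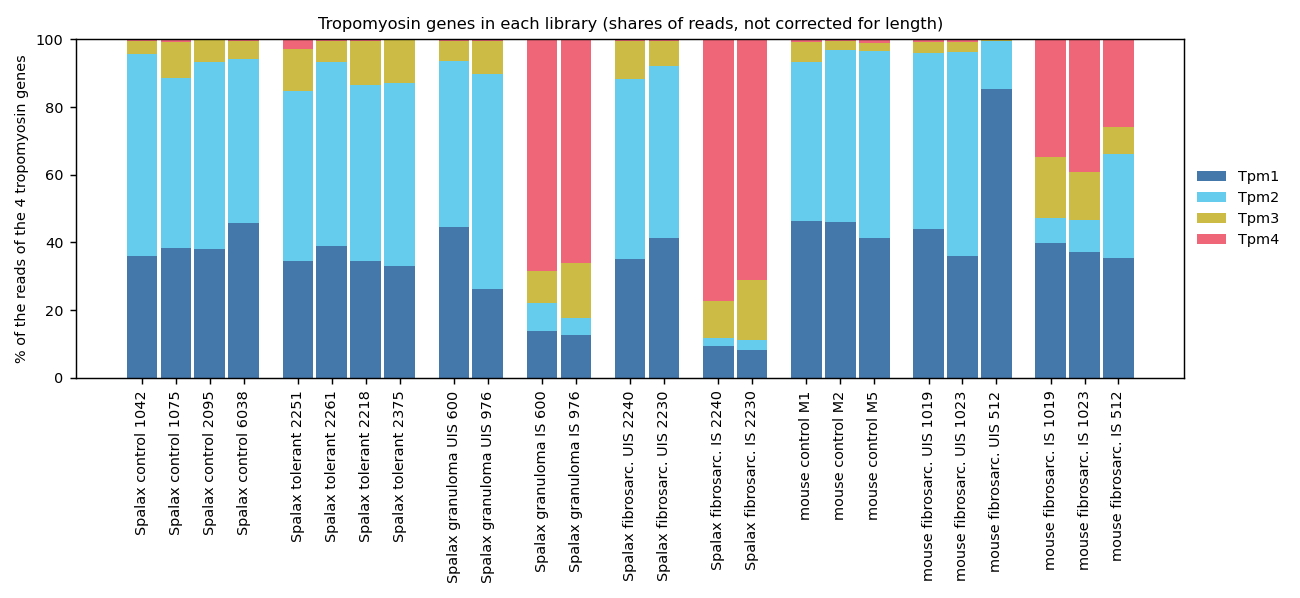
Stacked bars give the share of Tpm1, Tpm2, Tpm3 and Tpm4 in the reads of the 4 genes (y axis, %) for each library (x axis), not corrected for length. Tpm1 and Tpm2 fill most of each muscle bar, Tpm4 takes 66.1% to 77.3% of each Spalax lesion bar and 26.0% to 39.3% of the mouse lesion bars, and mouse UIS 512 is mostly Tpm1.

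Genes with the most similar pattern across the 12 Spalax muscle libraries were ranked by Pearson r of log2 values, as a description over libraries that share their scaling. For the mean of the slow troponins they were Myl2 (slow myosin light chain, r = 0.95), Nudt19 (0.91) and Myh7 (slow myosin heavy chain, 0.88), and over the 6 mouse muscle libraries these had r of 0.96, 0.65 and 0.98. For Tpm3 they were Myl2 (0.90), Cdc45 (0.89) and Myh7 (0.89), with 0.95, -0.04 and 0.98 in mouse. For the fast troponins they were the mitochondrial genes Ndufa5 (0.99), Mrps36 (0.98) and Slc25a11 (0.98), with 0.40, -0.31 and -0.14 in mouse. Both slow myosin genes thus had a high r with the slow troponins and Tpm3 in both species. The mouse r values rest on 6 libraries, of which UIS 512 lay far below the others in the slow troponins and Tpm3. Their r without it was not computed. The genes closest to the fast troponins in Spalax did not follow Tnni2 and Tnnt3 in mouse.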

How the data were processed

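RNA from neck muscle and lesions was sequenced from 1 end for 101 cycles, trimmed with Trimmomatic, mapped with TopHat and counted per gene with HTSeq by the authors, whose submission notes also name DESeq and GRCm38. The deposited signal values are reads per gene after the authors' division by a size factor of each library. Whole reads were recovered for 100% of values (relative tolerance 1e-06). Groups came from the sample labels. Each comparison was fitted with limma 3.58.1 (R 4.3.3, trend = TRUE) on log2(value + 1), so that fold changes of low genes are understated, over genes that reached 10 normalised counts in a number of libraries equal to the size of the smaller group. Benjamini-Hochberg adjustment ran over all genes tested and calls were made at an adjusted p of at most 0.05. The test was checked on simulated data. As alternatives, edgeR 4.0.16 and DESeq2 1.42.0 were run on the recovered reads, libraries were scaled by total reads, the pseudocount was 0.1, the filter was dropped, all libraries of a species were fitted in 1 model, the animal entered as a replicate block and each library was left out. Libraries of 1 group came from separate animals. IS and UIS libraries were paired by animal, and their deviations from the group means correlated with r = 0.00925 in granuloma, -0.00186 in Spalax fibrosarcoma and 0.0469 to 0.178 in mouse. Genes named beyond the 9 came from fixed lists (thin filament partners, slow, fast and developmental fiber genes, fiber type regulators, cytoskeletal actin genes and cell type markers) or were the 3 closest by Pearson r. The members and lists were chosen with earlier results of these data known. In 2387 Spalax gene names a comma stood for the letter t and was restored. The strand setting of the counting and the Spalax gene lengths are not given in the sources used here.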

Additional observations from a re-analysis of the deposited data

Results flagged for a closer look

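The slow gene took 6.75% of troponin I reads in Spalax tolerant 2261, against 16.2% to 18.0% in the other 3 tolerant libraries, and stood out by its gap to them. It was the only such library in 30 group checks, of which chance singles out about 1 in 20. Tnni3 differed between the species in its change from UIS to fibrosarcoma, with an interaction of -5.72 on the log2 scale (SE 1.26, limma adjusted p 0.0457). With the animal as a replicate block the adjusted p was 0.0777, and with edgeR 0.0525.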

How the results depend on the processing

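Members were called lower in 9 of 9 (granuloma), 9 of 9 (Spalax fibrosarcoma) and 4 of 8 (mouse) genes under the 2 other tools (DESeq2 called 5 in mouse), scaling by total reads, a pseudocount of 0.1, no filter (5 in mouse, with Tnnc2), 1 model and the replicate block. No called value of a member changed its sign. With the animal as a replicate block, the paired fits gave 9, 9 and 4, and the interactions 0 and 0. Leaving out 1 library gave 4 to 5 members in mouse, where 4238 to 7023 of all genes were called. In the species interaction it gave 0 to 2 members (Tnni2 and Tnnt3 without mouse IS 1019, Tpm1 and Tpm3 without mouse UIS 512). Fits of that interaction without 1 library called 4 to 778 of all 11085 genes tested. In granuloma, in Spalax fibrosarcoma and between the UIS muscles of fibrosarcoma and granuloma bearers, such fits left 1 library in a group. The members called there changed with the library left out. Without both libraries of mouse 512, a fit chosen after the data were seen, the count was 8 in mouse, where 24.3% of all genes were lower. In the species interaction it was 1 (Tpm3), for which the share of all genes is not given here. DESeq2 called 1 member (Tnnt3) between the lesion types, 1 (Tnnt3) in the interaction with lesion type and 6 in that with species, where dropping the filter gave 1 (Tnnc2, whose mouse counts carry the overlap with Ube2c). The cause of these differences was not tested, except that fits without 1 library rest on fewer samples and assume that a lone library varies like the other group. Over all genes, limma called 3581 in granuloma, against 5388 with DESeq2 and 98 without IS 976. Lesion counts under about 10 reads, as in Tnni1, limit the precision of the fold changes.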
